A study of Homo sapiens with 12 samples.

Results

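Immune checkpoint ligands are cell-surface or secreted proteins through which a tumour cell can dampen the immune cells that meet it. The 9 genes described here are CD274 (PD-L1), PDCD1LG2 (PD-L2), CD276 (B7-H3), PVR (CD155), NECTIN2 (CD112), CD47, LGALS9 (galectin-9), CEACAM1 and NT5E (CD73). They were found by matching their symbols to the Ensembl identifiers of the deposited count table, and all 9 were matched, out of 60617 genes in it. Of these, 8 had enough counts to be tested, and PDCD1LG2 did not. Their RNA was measured in 12 libraries of A549, a human lung adenocarcinoma cell line, in 4 groups of 3.

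The groups crossed a pair of perturbations. WT cells carried the unmodified genotype. In the YTHDF1 KO group the genotype labels give a knockout of YTHDF1, a cytoplasmic reader of N6-methyladenosine in RNA. The siARID1A group had received small interfering RNA against ARID1A, a DNA-binding subunit of the SWI/SNF chromatin remodeller, and the combined group carried the YTHDF1 knockout and the ARID1A small interfering RNA together. All 4 groups were grown in the same medium with serum, and no label gives an immune stimulus, a control small interfering RNA, a time after transfection, or whether the knockout cells were 1 clone or a pool. For the YTHDF1 arm the genotype field says knockout and the sample titles say knockdown. The titles call the replicates biological, and no label says more of how they were made, so the p-values measure the spread between these libraries.

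In textbook terms, PD-L1 and PD-L2 bind the inhibitory receptor PD-1 on T cells, and interferon signalling through JAK kinases, STAT proteins and the transcription factor IRF1 is the best known inducer of PD-L1 in epithelial tumour cells. PVR and NECTIN2 share receptors of opposite effect on T and NK cells: TIGIT and PVRIG inhibit, and CD226 activates. CD47 signals to SIRPA on macrophages and restrains phagocytosis, galectin-9 and CEACAM1 both bind TIM-3, CEACAM1 also binds itself across cells, and CD73 removes phosphate from extracellular AMP to yield immunosuppressive adenosine. Only transcript levels were measured here. In bulk RNA, fewer cells of a kind and less RNA per cell cannot be told apart.

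The regions upstream of RefSeq starts of CD274 and CEACAM1 are shown because these were the 2 members called higher in all 5 comparisons of 2 groups below. Their windows, and those of no other member searched, held an interferon regulatory factor core. NECTIN2 also rose in all 5, though its siARID1A change of 0.14 was not called (adjusted p = 0.0774, edgeR's quasi-likelihood test), and its window held no such core. The letters searched were GAAA, any 2 bases and GAAA again, on both strands, in the 250 bases before each start in RefSeq's GRCh38.p14 annotation. Each sequence below runs 5′ to 3′ on the gene's own strand, from 250 to 51 bases before that start, and capitals mark the matches. The CD274 stretch is chr9:5450292-5450491 on the plus strand and the CEACAM1 stretch is chr19:42528532-42528731 on the minus strand. RefSeq starts can differ from the GENCODE positions given below. The CEACAM1 stretch lies inside the GENCODE interval of that gene, 42507304 to 42561234, and not upstream of it. The windows searched for CD276, LGALS9, NT5E and CD47 also lie inside the GENCODE intervals of their genes.
CD274: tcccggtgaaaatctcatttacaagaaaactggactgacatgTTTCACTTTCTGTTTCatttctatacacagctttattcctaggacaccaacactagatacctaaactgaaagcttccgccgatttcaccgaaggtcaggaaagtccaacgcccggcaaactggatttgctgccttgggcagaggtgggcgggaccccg
CEACAM1: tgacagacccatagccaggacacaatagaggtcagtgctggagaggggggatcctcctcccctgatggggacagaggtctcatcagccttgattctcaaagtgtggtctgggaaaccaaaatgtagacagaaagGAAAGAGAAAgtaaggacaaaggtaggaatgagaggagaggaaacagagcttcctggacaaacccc

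The CD274 window held 2 overlapping matches, which begin 208 and 202 bases before the start. The CEACAM1 window held 1, which begins 116 bases before it. Of 35116 windows of this length, 3.02% held a match. For the other motifs searched, a STAT site (TTCNNNGAA, in 6.57% of all windows) was found in CD274 alone of the members, at 125 bases before the start, and a GC box (GGGCGGG, in 31.5%) in 6 members. A TEAD site (GGAATG, in 11.9%) was found in 2 members, and neither an AP-1 site (TGANTCA, in 6.57%) nor a cyclic AMP response element (TGACGTCA, in 1.65%) in any. There were 8 members with an entry, and CD276 had 2 windows. PDCD1LG2 had no entry and was not searched. The motifs were chosen with the results below known, and a match describes letters, not binding.

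Facts of all 12 libraries come first. Their totals ran from 30220717 to 45042635 counts. In the order WT, YTHDF1 KO, siARID1A and combined, YTHDF1 transcript was at 88.2 ± 2.57, 24.9 ± 2.08, 97.9 ± 4.69 and 30.9 ± 1.11 CPM (counts scaled to library size, mean ± SD, n = 3). ARID1A was at 164 ± 14.1, 161 ± 12, 42.5 ± 2.12 and 54.2 ± 6.51 CPM, so 25.9% of the WT level was left with the small interfering RNA alone and 33.1% with both perturbations. Of the WT libraries, replicate 2 stood apart: its share of mitochondrial transcripts was 4.85%, where WT replicates 1 and 3 had 7.90% and 8.23% and the remaining libraries 6.81% to 7.75%. Markers of A549 epithelium (EPCAM, CDH1 and 4 keratins) summed to 7791 to 9949 CPM in WT and 6905 to 8353 in siARID1A, but to 3534 to 3803 in YTHDF1 KO and 3894 to 4201 in the combined group. Leukocyte markers summed to at most 9.43 CPM in any library, with 4 or 5 of 10 at 0 in each group, endothelial markers to at most 0.58 CPM, and fibroblast markers to 21.6 to 57.1 CPM. Single markers departed from these sums. The epithelial sum was mostly KRT8, KRT18 and KRT7, while CDH1 held 104, 41.6, 171 and 109 CPM and EPCAM 3.52, 0.785, 8.14 and 1.66 CPM in the order WT, YTHDF1 KO, siARID1A and combined. The fibroblast sum was mostly COL1A1, while COL3A1 held 0.174, 5.88, 0.417 and 5.79 CPM, higher in both groups with the knockout, as were NT5E and CD47. PECAM1, an endothelial marker, held 0.0711 CPM in WT and 0.538 in the combined group, where it was called higher. The part of these shifts in the results below was not tested.

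Many of the genes tested were called, which sets the scale for the members. Calls are adjusted p under 0.05 by edgeR's quasi-likelihood test with Benjamini-Hochberg adjustment over 18524 genes, and percentages of genes called come from the same fit. In YTHDF1 KO against WT, 5 members rose and 2 fell, while 40.4% of all genes tested were called (19.6% higher, 20.8% lower). In siARID1A against WT, 2 rose and 2 fell, against 45.2% called (22.1% higher, 23% lower). In the combined group against WT, 5 rose and 2 fell, against 51.5% called (25.6% higher, 25.9% lower). Adding siARID1A to the knockout raised 3 members and lowered 1, with 23.4% of genes called (12.5% higher, 10.9% lower). Adding the knockout to siARID1A raised 5 and lowered 2, with 35.4% called (18.2% higher, 17.2% lower). The comparisons share libraries, so their counts are not independent of one another. CD276 was called in none of them. In the same order of comparisons, libraries of the 2 groups did not overlap for 7, 5, 7, 6 and 8 of the 8 tested members. Of all genes tested, 48.7%, 50.2%, 56.2%, 43.7% and 48.3% did not overlap, so a lack of overlap is common in these data.

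**Figure D1:**
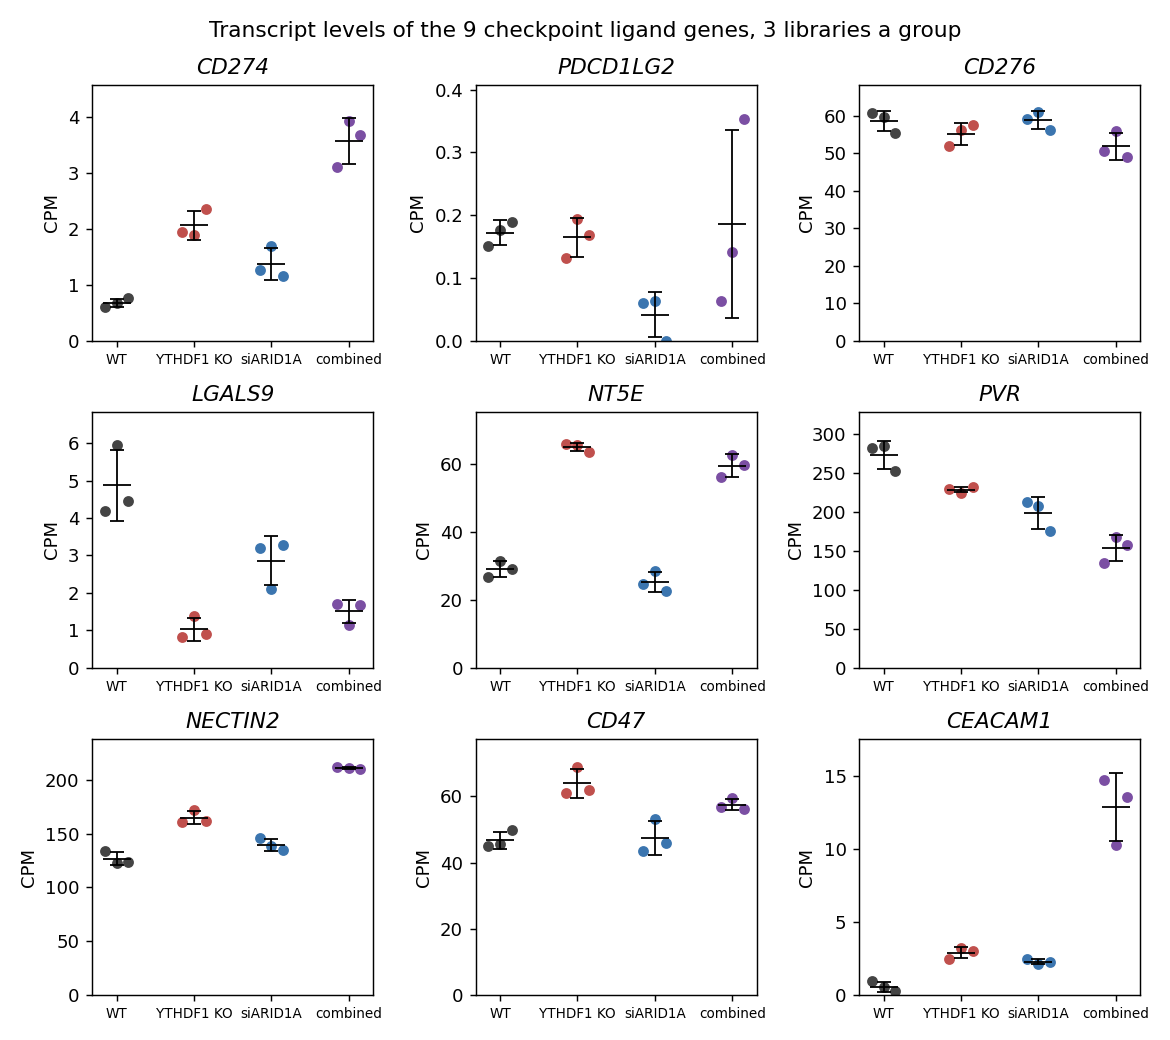
Transcript level of each of the 9 genes in CPM (vertical axes, linear and starting at 0) in the 4 groups; points are the 3 libraries of a group, the long bar is their mean and the whiskers are ±1 SD. CD274 and CEACAM1 are lowest in WT and highest in the combined group, NT5E and CD47 are higher in both groups that carry the YTHDF1 knockout, PVR falls from WT to the combined group, and LGALS9 is lowest in YTHDF1 KO.

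CD274 (ENSG00000120217, chromosome 9, 5450503 to 5470566 on the plus strand, GRCh38), which encodes PD-L1, was a low transcript that rose with each perturbation. The 3 WT libraries held 0.60, 0.663 and 0.754 CPM, from 24 to 30 counts each. YTHDF1 KO libraries held 1.94, 1.89 and 2.36 CPM, siARID1A libraries 1.27, 1.69 and 1.15 CPM, and combined libraries 3.11, 3.92 and 3.68 CPM. No library of any group overlapped one of another group, and the order was WT, siARID1A, YTHDF1 KO, combined. Against WT the fold was 3.07 in YTHDF1 KO (log2 1.62, SE 0.13, adjusted p = 1.27e-05), 2.04 in siARID1A (log2 1.03, SE 0.18, adjusted p = 0.0026) and 5.32 in the combined group (log2 2.41, SE 0.13, adjusted p = 1.29e-08). Adding siARID1A to the knockout raised CD274 by 0.80 on the log2 scale (SE 0.14, adjusted p = 0.0106). That last call did not hold without YTHDF1 KO replicate 2 (log2 0.73, adjusted p = 0.0537) or without combined replicate 2 (log2 0.72, adjusted p = 0.0548).

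PDCD1LG2 (ENSG00000197646, chromosome 9, 5510570 to 5571254, plus strand), which encodes the other PD-1 ligand and starts 60.1 kb downstream of the CD274 start, was near the limit of detection. WT libraries held 6, 8 and 6 counts, YTHDF1 KO 5, 8 and 6, siARID1A 2, 2 and 0, and the combined group 2, 6 and 14. The siARID1A libraries were the lowest as a set, yet the combined group spanned 2 to 14 counts and overlapped every other group. With no filter on low counts, no comparison of PDCD1LG2 passed, and the smallest adjusted p was 0.241, for the combined group against siARID1A. A difference was not detectable at this depth.

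CD276 (ENSG00000103855, chromosome 15, 73683966 to 73714518, plus strand) encodes B7-H3, a member of the B7 family whose receptor on T cells is still debated. Its WT libraries held 60.8, 59.7 and 55.5 CPM, YTHDF1 KO 51.9, 56.2 and 57.5, siARID1A 59.3, 61.0 and 56.3, and the combined group 50.7, 56.0 and 49.1. All groups overlapped WT. The fitted change against WT was -0.09 in YTHDF1 KO (adjusted p = 0.371), 0.00 in siARID1A (adjusted p = 0.966) and -0.18 in the combined group (SE 0.07, adjusted p = 0.0503) on the log2 scale. The last of these, and the change from siARID1A to the combined group (-0.18, adjusted p = 0.0615), lay next to the threshold and crossed it under some alternatives.

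PVR and NECTIN2, paralogous nectin-family ligands of TIGIT and CD226 whose starts lie 202 kb apart on chromosome 19, moved in opposite directions in YTHDF1 KO and in the combined group. PVR (ENSG00000073008, 44643798 to 44663583, plus strand) held 281, 284 and 252 CPM in WT, 229, 224 and 232 in YTHDF1 KO, 212, 208 and 175 in siARID1A, and 135, 168 and 157 in the combined group. Each perturbed group lay below WT without overlap, and the combined libraries lay below all others. Against WT, PVR fell by 0.26 in YTHDF1 KO (SE 0.06, adjusted p = 0.0145), by 0.46 in siARID1A (SE 0.10, adjusted p = 5.82e-05) and by 0.83 in the combined group (SE 0.11, adjusted p = 6.32e-09) on the log2 scale. The first call was lost when libraries were scaled by their totals (-0.16, adjusted p = 0.115) and without YTHDF1 KO replicate 2 (-0.24, adjusted p = 0.0553). From YTHDF1 KO to the combined group PVR fell by 0.57 (adjusted p = 1.09e-05), and from siARID1A to the combined group by 0.37 (adjusted p = 0.000851).

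NECTIN2 (ENSG00000130202, 44846175 to 44889228, plus strand) held 134, 123 and 123 CPM in WT, 160, 172 and 162 in YTHDF1 KO, 146, 138 and 135 in siARID1A, and 212, 211 and 210 in the combined group. No group overlapped another. NECTIN2 rose in YTHDF1 KO (log2 0.38, SE 0.05, adjusted p = 3.27e-05) and in the combined group (log2 0.73, SE 0.04, adjusted p = 7.22e-10), and its siARID1A change of 0.14 did not pass (adjusted p = 0.0774). That last change did pass under DESeq2 (log2 0.17, adjusted p = 0.0171), which scales libraries in another way. Within the knockout, siARID1A raised NECTIN2 by 0.35 on the log2 scale (SE 0.03, adjusted p = 0.000209), and the interaction, the siARID1A change in the knockout minus that in WT, was 0.21 (SE 0.06, adjusted p = 0.118).

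Per kilobase of merged exon, the scale on which levels of different genes can be compared, this pair changed places. In WT, PVR led the members at 77.4 ± 4.98 CPM per kb and NECTIN2 followed at 33.8 ± 1.66. In the combined group NECTIN2 led at 56.2 ± 0.22 and PVR followed at 43.5 ± 4.78. Libraries of the pair did not overlap in any group. In YTHDF1 KO and siARID1A PVR was still above NECTIN2, at 64.9 ± 1.08 against 44.0 ± 1.69 and at 56.3 ± 5.70 against 37.3 ± 1.51 CPM per kb.

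CD47 (ENSG00000196776, chromosome 3, 108043094 to 108091862, minus strand), the ligand that restrains phagocytosis, was higher in the groups with the YTHDF1 knockout. WT libraries held 45.1, 45.5 and 49.7 CPM, YTHDF1 KO 61.0, 68.9 and 62.0, siARID1A 43.4, 53.3 and 45.8, and the combined group 56.8, 59.5 and 56.3. Both knockout groups lay above all WT and siARID1A libraries. On the log2 scale CD47 rose by 0.45 in YTHDF1 KO (SE 0.07, adjusted p = 5.9e-05) and by 0.30 in the combined group (SE 0.05, adjusted p = 0.00305), and in siARID1A the change was 0.02 (SE 0.10, adjusted p = 0.855). The rise from siARID1A to the combined group, 0.28 (adjusted p = 0.00852), did not pass without siARID1A replicate 1 (0.22, adjusted p = 0.0707).

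NT5E (ENSG00000135318, chromosome 6, 85449584 to 85495791, plus strand), which encodes the AMP-hydrolysing enzyme CD73, was higher in the groups with the YTHDF1 knockout. WT libraries held 26.6, 31.2 and 29.1 CPM, YTHDF1 KO 65.8, 65.4 and 63.6, siARID1A 24.7, 28.5 and 22.6, and the combined group 56.1, 62.6 and 59.6. The lowest knockout library was above the highest library without the knockout. The fold against WT was 2.24 in YTHDF1 KO (log2 1.16, SE 0.07, adjusted p = 3.88e-11) and 2.05 in the combined group (log2 1.04, SE 0.08, adjusted p = 2.26e-10). With siARID1A alone the change was -0.20 (SE 0.12, adjusted p = 0.0664), and with siARID1A on top of the knockout -0.13 (SE 0.05, adjusted p = 0.305).

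CEACAM1 (ENSG00000079385, chromosome 19, 42507304 to 42561234, minus strand), an adhesion molecule with inhibitory signalling motifs in its long isoforms, had the widest fitted change of the 8 tested members. WT libraries held 0.925, 0.509 and 0.251 CPM, from 37, 23 and 8 counts. YTHDF1 KO libraries held 2.46, 3.19 and 2.98 CPM, siARID1A libraries 2.48, 2.10 and 2.28, and combined libraries 14.7, 10.3 and 13.6, the last from 438 to 539 counts. The single perturbations overlapped each other, both lay above WT, and the combined libraries were above everything else. Against WT the fold was 4.97 in YTHDF1 KO (log2 2.31, SE 0.50, adjusted p = 1.52e-07), 3.95 in siARID1A (log2 1.98, SE 0.49, adjusted p = 2.78e-06) and 22.2 in the combined group (log2 4.47, SE 0.51, adjusted p = 2.56e-13). Because the WT counts were few and uneven, the log2 change in the combined group ran from 4.17 to 5.00 when 1 library was left out in turn. Against the single perturbations, which rest on more counts, the combined group was 4.46-fold above YTHDF1 KO (log2 2.16, SE 0.19, adjusted p = 3.71e-08) and 5.61-fold above siARID1A (log2 2.49, SE 0.17, adjusted p = 1.43e-09). CEACAM1 has close paralogs, and 3.35% of its merged exon length is shared with the antisense gene LIPE-AS1, so a part of its counts is uncertain.

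LGALS9 (ENSG00000168961, chromosome 17, 27629798 to 27649560, plus strand), which encodes the secreted lectin galectin-9, fell in every perturbed group. WT libraries held 4.20, 5.95 and 4.46 CPM, YTHDF1 KO 0.812, 1.38 and 0.899, siARID1A 3.20, 2.10 and 3.28, and the combined group 1.69, 1.15 and 1.66. All perturbed libraries were below all WT libraries, and YTHDF1 KO and the combined group overlapped. On the log2 scale the LGALS9 change was -2.23 in YTHDF1 KO (SE 0.27, adjusted p = 9.44e-08), -0.77 in siARID1A (SE 0.26, adjusted p = 0.00916) and -1.71 in the combined group (SE 0.23, adjusted p = 2.32e-06). The siARID1A call rested on single libraries: it was -0.57 (adjusted p = 0.0712) without WT replicate 2, the library that stood apart, and -0.59 (adjusted p = 0.0609) without siARID1A replicate 2. A gene with the identifier ENSG00000266728 shares 5.14% of the merged exon length of LGALS9.

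**Figure D2:**
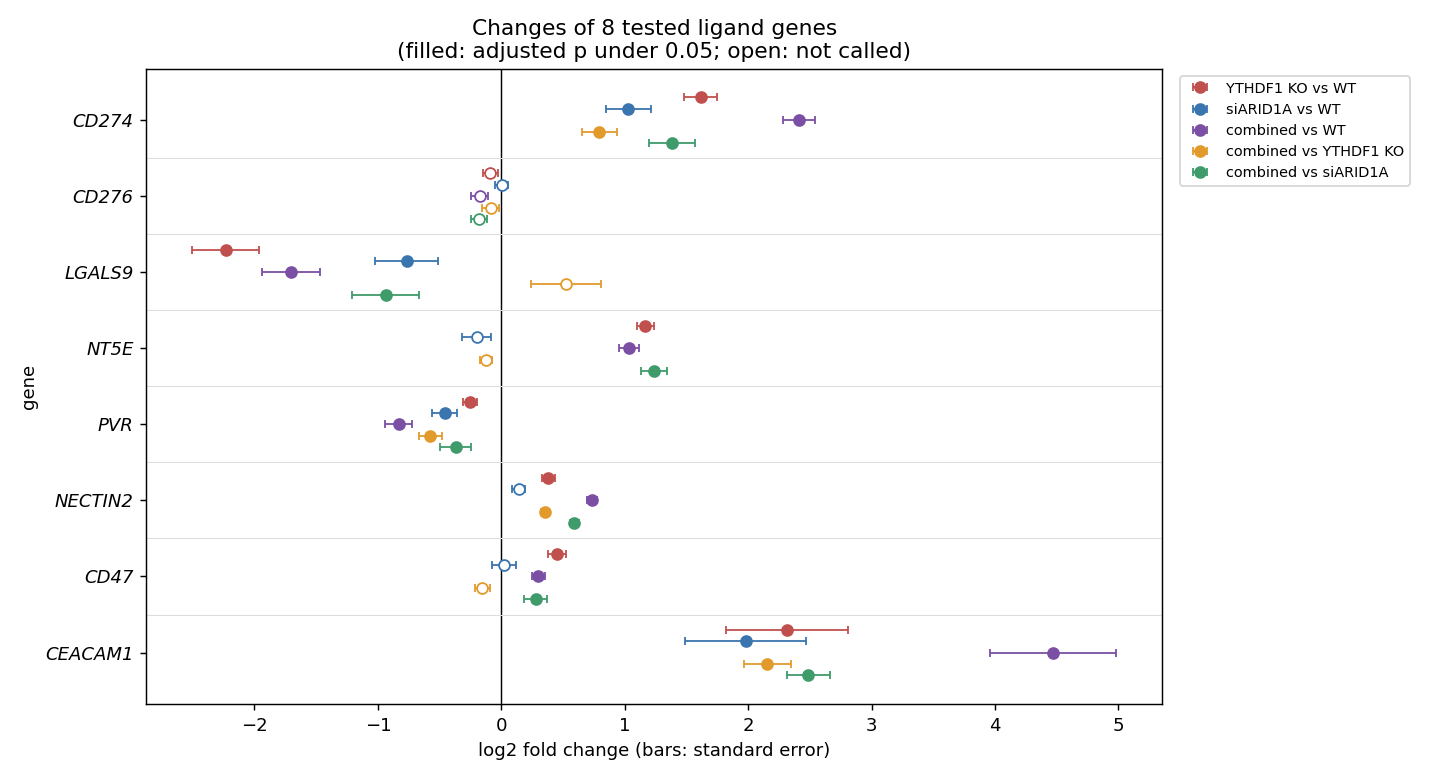
Log2 fold change of the 8 tested genes (rows) in 5 comparisons (colours), with horizontal bars of ±1 SE; filled points have an adjusted p under 0.05. CEACAM1 reaches 4.47 in the combined group against WT, LGALS9 falls to -2.23 in YTHDF1 KO, and the points of CD276 are all open.

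Whether the combined change was the sum of the single ones was read from the interaction. For 7 of 8 tested members the interaction did not pass, and LGALS9 was the 1 called, where 17.1% of all genes were called (8.87% higher, 8.22% lower). The sum of the single log2 changes of CEACAM1 was 4.30 and its combined change 4.47 (interaction 0.17, SE 0.53, adjusted p = 0.816). The sum for CD274 was 2.65 and its combined change 2.41 (interaction -0.23, SE 0.23, adjusted p = 0.718). The 712 tested genes of chromosome 9, which holds CD274, had a median interaction of 0.39, where that of all genes tested was 0.02. The sum for NT5E was 0.97 against 1.04, and for PVR -0.72 against -0.83. LGALS9 summed to -3.00, and its combined change was -1.71, an interaction of 1.30 (SE 0.38, adjusted p = 0.0127). An interaction that misses the threshold does not show that changes added up, and the SE of CEACAM1's leaves a wide range.

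**Figure D3:**
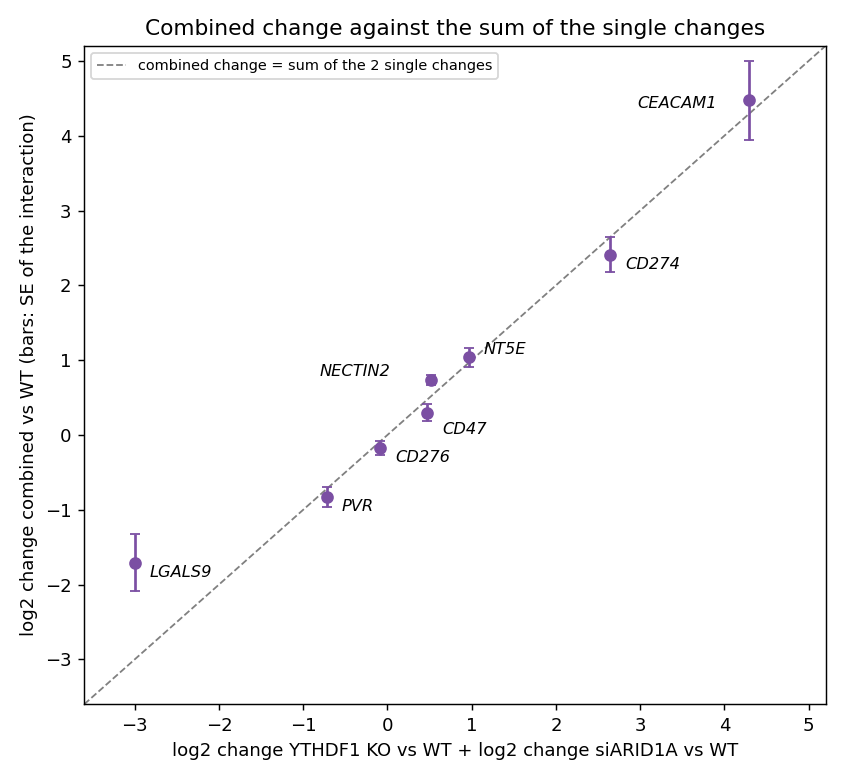
Combined change against WT (vertical axis, log2) against the sum of the 2 single changes (horizontal axis, log2) for the 8 tested genes; bars are ±1 SE of the interaction and the dashed line marks equality. LGALS9 lies above the line, at -1.71 for a sum of -3.00, and CEACAM1 lies near it, at 4.47 for a sum of 4.30.

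The order of the lower members by level also changed. Per kilobase of exon in WT, CD276 stood at 10.6 ± 0.50, NT5E at 6.39 ± 0.52 and CD47 at 5.69 ± 0.31 CPM per kb, and libraries of NT5E and CD47 overlapped. LGALS9 followed at 0.852 ± 0.17, and CD274, CEACAM1 and PDCD1LG2, at 0.164 ± 0.02, 0.102 ± 0.06 and 0.0726 ± 0.01, overlapped one with the next. In the combined group NT5E (13.1 ± 0.72) stood above CD276 (9.37 ± 0.65), and CEACAM1 (2.33 ± 0.42) and CD274 (0.868 ± 0.10) stood above LGALS9 (0.263 ± 0.05), with no overlap between neighbours in that order.

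Genes near each member are given as the surroundings of its change. Within 5 Mb of the CD274 start, 33 tested genes had a median log2 change of 0.02, -0.03 and -0.10 in YTHDF1 KO, siARID1A and the combined group against WT. Of these 33 genes 1, 7 and 1 had a higher value than CD274. The 712 tested genes of chromosome 9 as a whole had medians of -0.36, -0.41 and -0.38 in the same comparisons. JAK2, the kinase gene of interferon receptors that lies in this window, rose in YTHDF1 KO (log2 0.61) and the combined group (0.73) and fell in siARID1A (-0.35). Around CEACAM1, 263 tested genes had medians of 0.07, 0.06 and 0.14, and 8, 12 and 4 of them were higher than CEACAM1. The 105 tested genes around LGALS9 had a median of -0.03 in YTHDF1 KO, and none of them lay below LGALS9. Around NT5E the median of 38 genes was -0.09 in YTHDF1 KO, with 3 above NT5E. Around CD47 the median of 26 genes was -0.12 in YTHDF1 KO and -0.19 in the combined group, with 3 and 6 above CD47. Chromosome 2, which holds no member, had medians of -0.41, 0.01 and -0.42 over 1231 tested genes in the 3 comparisons with WT. Thus chromosome 9 ran lower in every perturbed group, and chromosome 2 in the groups with the knockout. These chromosome-wide shifts run with the groups, and their part in the changes of the members was not tested.

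**Figure D4:**
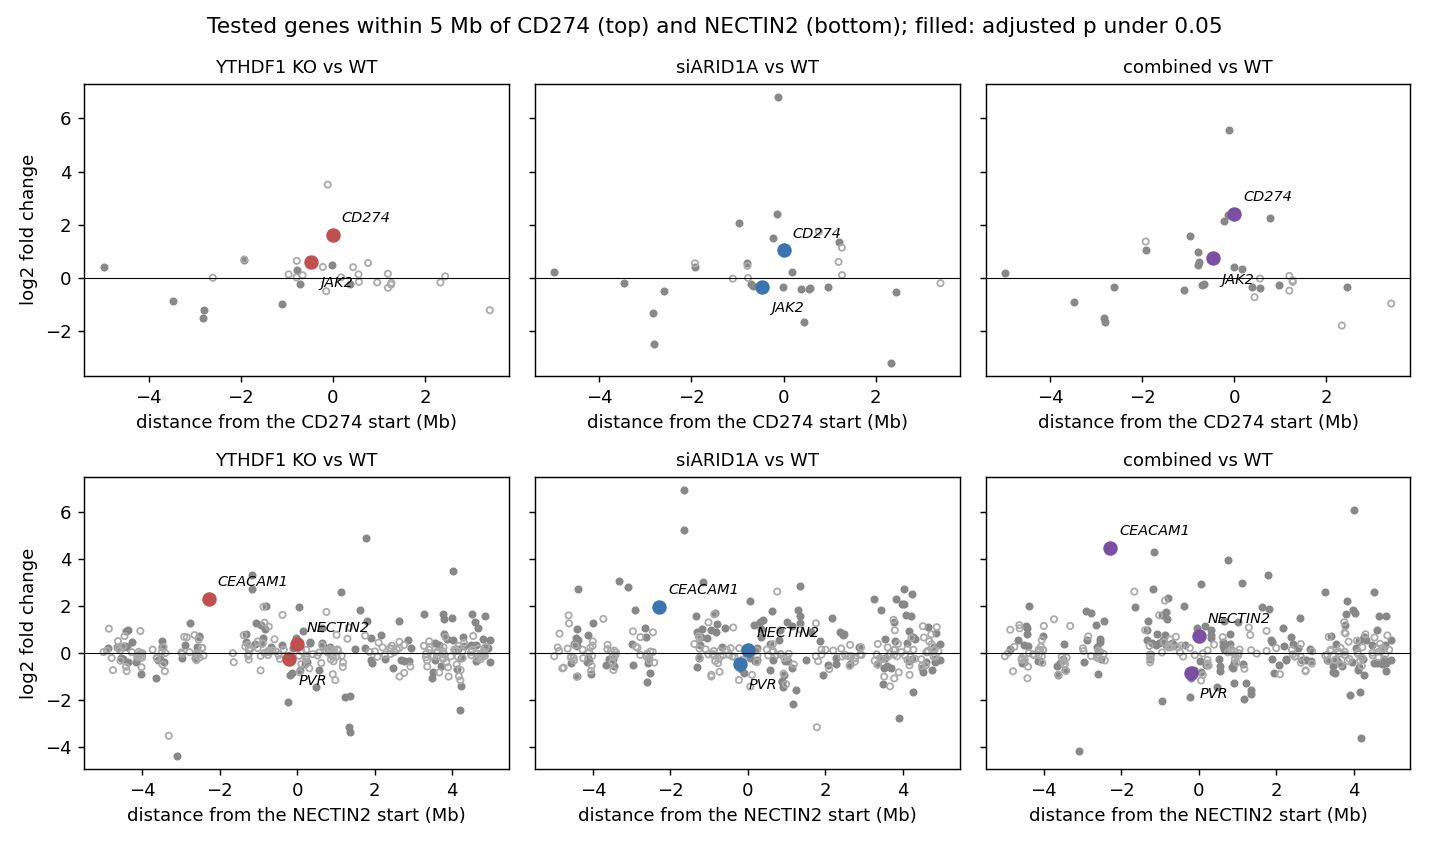
Log2 fold change against WT (vertical axes) of tested genes within 5 Mb of the CD274 start (top row) and of the NECTIN2 start (bottom row), by distance in Mb; filled grey points are called, open ones are not, and coloured points are the genes named, whether called or not. CD274 at 1.62 in YTHDF1 KO stands above all but 1 of 33 neighbours, and CEACAM1 at 4.47 in the combined group stands above NECTIN2 at 0.73 and PVR at -0.83.

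The genes whose log2 levels ran most like each member over the 12 libraries were looked up among genes with a mean of at least 5 CPM, as a description over libraries that fall into 4 groups. CD274 was most like NCOA7 (Pearson r = 0.980), SAMD9L (0.978), a gene known to be induced by interferon, and RFX3 (0.977). RFX3 is a neighbour on chromosome 9, inside the 5 Mb window around CD274. It rose by 0.68, 0.42 and 1.06 on the log2 scale in YTHDF1 KO, siARID1A and the combined group against WT. SAMD9L held 1.91, 8.55, 5.48 and 21.9 CPM in the order WT, YTHDF1 KO, siARID1A and combined. CEACAM1 was most like GTF2E1 (0.984), NT5E like DLG4 (0.992), PVR like MAP4 (0.989) and NECTIN2 like the glucose transporter gene SLC2A3 (0.983). SLC2A3 held 48.4, 137, 79.7 and 297 CPM in that order of groups. LGALS9 was most like the receptor gene FGFR3 (0.969), CD47 like BRIX1 (0.965) and CD276 like NCBP2AS2 (0.958). None of these 8 nearest genes is itself a member.

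Other T cell ligands of the B7, butyrophilin, nectin and tumour necrosis factor families, with a few enzymes and lectins of like effect, were read as a list of 36 genes, of which 27 were tested. In YTHDF1 KO 8 rose and 6 fell (29.6% and 22.2% of those tested, against 19.6% and 20.8% of all genes). In siARID1A 15 rose and 5 fell (55.6% and 18.5%, against 22.1% and 23%), and in the combined group 12 rose and 8 fell (44.4% and 29.6%, against 25.6% and 25.9%). The median log2 change was 0.16, 0.60 and 0.26, where that of all genes was -0.01 in each. CD40, a costimulatory receptor of the tumour necrosis factor receptor family, rose from 2.24 ± 0.30 CPM in WT to 8.64 ± 0.64, 9.50 ± 0.38 and 15 ± 1.23 CPM in YTHDF1 KO, siARID1A and the combined group. BTN3A1, a butyrophilin that takes part in the sensing of phosphoantigens by gamma delta T cells, rose by 1.30 in siARID1A and 1.36 in the combined group. NECTIN3, the nectin that pairs with NECTIN2 and PVR, fell by 1.24 in siARID1A (adjusted p = 8.66e-12), and the costimulatory ligand TNFSF9 rose by 1.52 there. VSIR, which encodes the B7-family ligand VISTA, fell by 0.97 in YTHDF1 KO and rose by 0.82 in siARID1A.

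CEACAM6, a paralog of CEACAM1 without its inhibitory tail, rose with it in siARID1A but fell in both groups with the YTHDF1 knockout, where CEACAM1 rose. WT held 2.54 ± 0.45 CPM of CEACAM6, siARID1A 17.9 ± 2.90, YTHDF1 KO 0.118 ± 0.12 and the combined group 0.146 ± 0.11. The log2 change of CEACAM6 was -4.36 in YTHDF1 KO (adjusted p = 6.15e-08), 2.80 in siARID1A and -4.15 in the combined group. IDO1, the tryptophan-degrading enzyme, had 0 counts in WT and in siARID1A, 32 counts in YTHDF1 KO and 177 in the combined group. Against a floor of 3 counts over the WT group, IDO1 was at least 10.8-fold higher in YTHDF1 KO and at least 60.5-fold higher in the combined group. TNFRSF14, the receptor of the inhibitory molecule BTLA, had 0 counts in WT and was at least 10.5-fold higher in YTHDF1 KO, 10.3-fold in siARID1A and 24.6-fold in the combined group. The medians of the list are the same with both genes at these bounds.

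Ligands of NK cell receptors were read as 12 genes, 11 of them tested. In YTHDF1 KO 5 rose and 2 fell (45.5% and 18.2%, against 19.6% and 20.8% of all genes). In siARID1A 3 rose and 4 fell (27.3% and 36.4%, against 22.1% and 23%), and in the combined group 6 rose and 2 fell (54.5% and 18.2%, against 25.6% and 25.9%). HLA-E, the ligand of the inhibitory receptor NKG2A, held 23.8 ± 3.52, 38.8 ± 1.30, 37.1 ± 1.67 and 65.8 ± 2.54 CPM in the order WT, YTHDF1 KO, siARID1A and combined. Its log2 changes against WT were 0.71 (adjusted p = 5.66e-07), 0.64 (adjusted p = 2.69e-06) and 1.47 (adjusted p = 8.71e-13). MICB, a stress-induced ligand of the activating receptor NKG2D, rose by 1.16 in siARID1A, ULBP1, another such ligand, fell by 1.40 there, and RAET1G, one more, fell in YTHDF1 KO (-2.37), siARID1A (-1.48) and the combined group (-2.58). RAET1L, of the same family, went the other way, from 0.147 ± 0.18 CPM in WT to 1.93 ± 0.21 in YTHDF1 KO (log2 3.57, adjusted p = 6.13e-06) and 3.96 ± 1.06 in the combined group (log2 4.60, adjusted p = 8.09e-08).

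Regulators of PD-L1, a list of 30 transcription, signalling and protein-stability genes of which 29 were tested, had 12 higher and 4 lower in YTHDF1 KO (41.4% and 13.8%, against 19.6% and 20.8% of all genes). In siARID1A 10 were higher and 7 lower (34.5% and 24.1%, against 22.1% and 23%), and in the combined group 14 and 7 (48.3% and 24.1%, against 25.6% and 25.9%), so the share of lower genes was near that of all genes in both. IRF1, the interferon regulatory factor that drives CD274 transcription in other settings, held 7.30 ± 1.48, 12.1 ± 0.71, 12.9 ± 1.88 and 23.8 ± 1.24 CPM in the same order. The IRF1 changes were 0.73, 0.82 and 1.71 on the log2 scale (adjusted p = 5.55e-11 in the combined group). STAT2, a subunit of the interferon-activated complex ISGF3, rose by 1.53 in the combined group, from 22.2 ± 0.80 to 63.8 ± 4.70 CPM. SOCS3, a feedback inhibitor of JAK signalling, rose by 2.30 in YTHDF1 KO, and STAT3, a transcription factor of that pathway, by 0.70. RELB, a subunit of NF-kB, rose by 0.94 in YTHDF1 KO and 1.19 in siARID1A. MYC, also on this list, was called lower in every perturbed group against WT, where CD274 was called higher. The MYC means were 208, 137, 139 and 112 CPM, with groups ordered as for IRF1. Its log2 changes against WT were -0.60, -0.58 and -0.89. Others fell in the combined group: the interferon receptor kinase gene JAK1 went from 455 ± 4.92 CPM in WT to 285 ± 22.5 (log2 -0.68), and JUN, a subunit of AP-1, changed by -1.13 to 45.7 ± 2.04 CPM. On the side of protein stability, CMTM6, which keeps PD-L1 from lysosomal breakdown, fell by 0.60 in siARID1A while its relative CMTM4 rose by 0.72, and HIP1R, which carries PD-L1 to the lysosome, rose by 1.29 in the combined group.

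The adenosine pathway list held 15 genes, 13 of them tested, with 5 higher and 4 lower in YTHDF1 KO (38.5% and 30.8%, against 19.6% and 20.8% of all genes). In siARID1A 2 were higher and 5 lower (15.4% and 38.5%, against 22.1% and 23%), and in the combined group 4 and 5 (30.8% and 38.5%, against 25.6% and 25.9%). CD38, an ectoenzyme that consumes NAD+ upstream of CD73, held 11.4 ± 0.96, 30.4 ± 1.86, 17.3 ± 1.89 and 67.9 ± 3.39 CPM in the order WT, YTHDF1 KO, siARID1A and combined. Its log2 change in the combined group was 2.58 (adjusted p = 5.2e-17). ENTPD2, which hydrolyses extracellular ATP, fell in YTHDF1 KO (log2 -3.16), siARID1A (-3.10) and the combined group (-4.31). ADA, which removes adenosine, rose by 0.72 in YTHDF1 KO, and the adenosine receptor gene ADORA2B fell by 0.68 in the combined group.

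Of 8 other genes of phagocytosis signals, 7 were tested, with 3 higher and 1 lower in YTHDF1 KO (42.9% and 14.3%, against 19.6% and 20.8% of all genes). In siARID1A and in the combined group 2 were higher and 2 lower (28.6% each way), near the shares of all genes. THBS1, a soluble partner of CD47, rose by 1.44 in YTHDF1 KO and 0.72 in the combined group, and CD24, another signal that restrains macrophages, changed by -1.43 and -0.98. QPCT, a relative of the enzyme that modifies CD47 for SIRPA binding, rose by 1.04 in siARID1A. Calreticulin (CALR), a signal that promotes uptake, fell by 0.88 in siARID1A and fell by 0.48 in the combined group. Receptors of the ligands, a list of 17 genes mostly of lymphocytes, had 6 tested. In YTHDF1 KO 0 were higher and 2 lower (33.3% lower, against 20.8% of all genes). In siARID1A 2 were higher and 2 lower (33.3% each way, against 22.1% and 23%), and in the combined group 0 and 3 (50% lower, against 25.9%). SIRPA, the receptor of CD47, fell by 0.54 in YTHDF1 KO and 0.45 in the combined group, and rose by 0.44 in siARID1A.

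**Figure D5:**
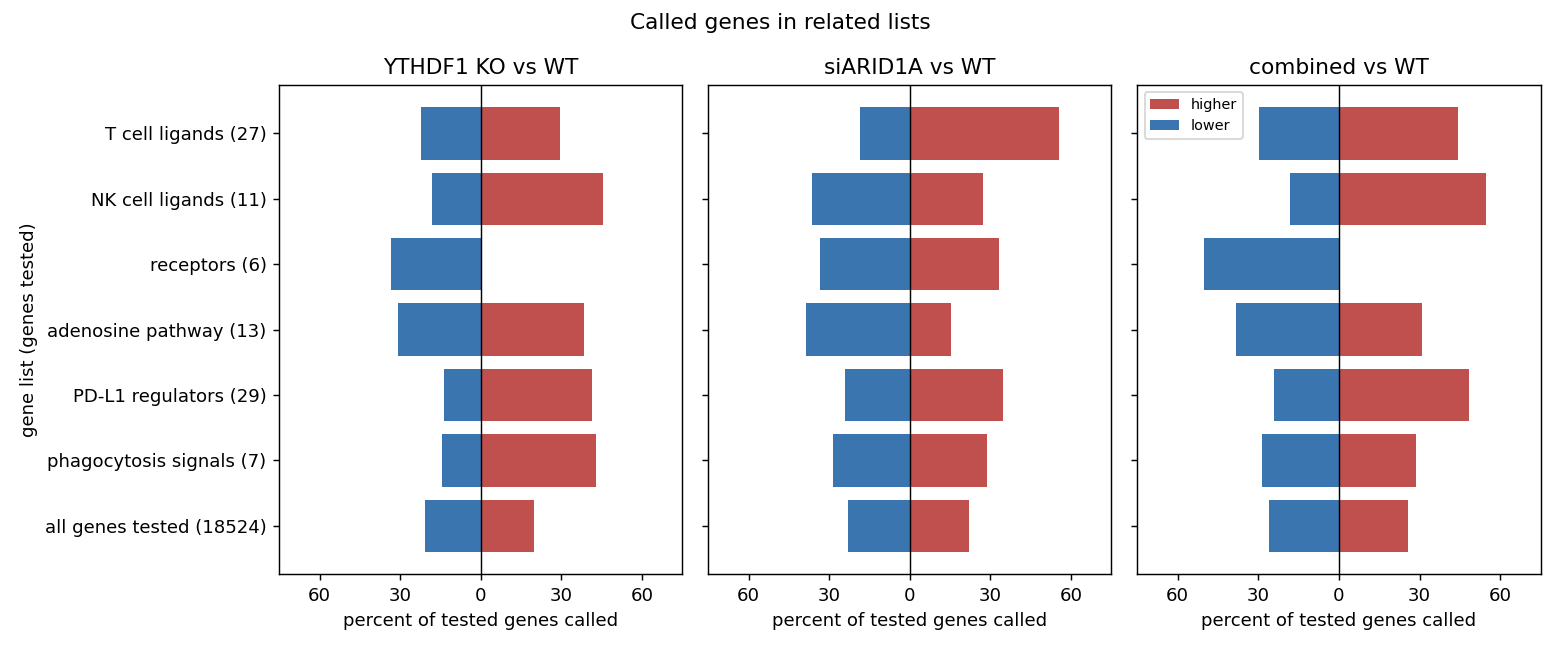
Percent of tested genes called higher (right, red) and lower (left, blue) in each of 6 related lists and in all genes tested (rows, with the number tested), for each group against WT (panels). Of the T cell ligands, 55.6% were higher in siARID1A, where 22.1% of all genes were, and 48.3% of PD-L1 regulators were higher in the combined group, where 25.6% of all genes were.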

How the data were processed

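RNA was measured in 12 A549 libraries, 4 groups of 3 from the genotype labels. Per the labels, total RNA went into stranded libraries. The submitters' processing notes name GRCh38, trimming with Trim Galore 0.6.6, alignment software STAR 2.7.0d, the counter featureCounts 2.0.1, and edgeR 3.32.1. The authors deposited raw counts per Ensembl gene, whole numbers, 1 column per library. Which annotation was counted, and with what strand setting, is not given in the sources used here, so counts where genes overlap are uncertain.

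From these counts the following was computed with edgeR 4.0.16 (R 4.3.3): filterByExpr (18524 of 60617 genes), TMM scaling, 1 fit over 4 groups, robust quasi-likelihood F test, two-sided, Benjamini-Hochberg adjustment, threshold 0.05. A pairwise comparison is a difference of 2 groups, and 5 were made besides the interaction. CPM use TMM-scaled totals of the genes tested. Standard errors come from replicate SDs of log2 CPM with a prior count of 2, which understates the errors of low genes. The log2 changes come from the fit and do not carry that prior count. A group at 0 counts is set to a floor of 3 counts over the group, which covers counting error only. Positions and merged exon lengths are from GENCODE 29, promoters from RefSeq (GRCh38.p14).

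The members and gene lists were chosen with earlier results of these data known. Named genes were the members, both targets and, of each list and comparison, genes among the 4 with the smallest p past the threshold. IDO1, TNFRSF14, the chromosome 9 gene JAK2, and values of a gene so named in comparisons where it was not among the 4, were added after their values were seen. The genes most like each member are those with the highest Pearson r over the 12 libraries. Alternatives were RLE size factors, library totals, TMM without chromosomes 2 and 9, no filter, DESeq2 1.42.0, only the groups compared, a replicate block, and leaving out each of 12 libraries. The scripts were tested on simulated data. Per the labels replicate numbers are shared by the groups, but they did not pair the libraries.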

Additional observations from a re-analysis of the deposited data

Results flagged for a closer look

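LGALS9 responded to siARID1A differently with and without YTHDF1, by a test of that difference. In WT cells siARID1A changed LGALS9 by -0.77 on the log2 scale, from 4.87 ± 0.94 to 2.86 ± 0.66 CPM (SD, n = 3), and in the knockout by 0.53, from 1.03 ± 0.31 to 1.5 ± 0.31 CPM, where the libraries overlapped and the change did not pass (adjusted p = 0.176). The interaction was 1.30 (SE 0.38, adjusted p = 0.0127, edgeR's quasi-likelihood test), and its adjusted p ran from 0.00508 to 0.0445 over the alternatives tried, with the direction the same in each. The knockout libraries rest on 120 counts of LGALS9 in all, and the combined ones on 169. The drop with siARID1A in WT alone did not pass without WT replicate 2, as given above, and the interaction without that library was within the range just given. ARID1A transcript itself was less lowered in the knockout. It was higher in the combined group than in siARID1A (log2 0.35, adjusted p = 0.00214), and its own interaction was called (0.38, adjusted p = 0.0278, same test). The part of this difference in the LGALS9 interaction was not tested.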

How the results depend on the processing

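Over 904 values of the 8 tested members under 19 alternatives, 870 kept their direction and their side of the threshold, 17 moved past it, 7 fell short of it and 10 changed sign, all of these 10 in changes that had not passed. CD276 turned to 0.0042 in YTHDF1 KO with library totals and to -0.0076 in siARID1A with TMM without chromosomes 2 and 9. With 1 library left out, CD276 ran from -0.036 to 0.038 and CD47 from -0.072 to 0.082 in siARID1A, and the interaction of CEACAM1 from -0.35 to 0.47 and of NT5E from -0.015 to 0.17. CD276 in the combined group passed without WT replicate 3 (-0.21, adjusted p = 0.0286) and without combined replicate 2 (-0.23, adjusted p = 0.024), over a range of 0.024 to 0.201 when 1 library was left out. NT5E in siARID1A passed without siARID1A replicate 2 (-0.30, adjusted p = 0.0111) and without WT replicate 1 (-0.26, adjusted p = 0.0266). The causes were not tested. No count of genes or members past the threshold, with both directions added, changed by more than 1.5 times. Of the 2 members lower in siARID1A, 1 was left without WT replicate 2 or siARID1A replicate 2 (LGALS9 lost), and of the 2 lower in YTHDF1 KO, 1 was left with library totals or without YTHDF1 KO replicate 2 (PVR lost).

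Scaling by library totals raised the median of all genes by 0.14 in the combined group against WT (log2) and made 61.2% of the called genes higher in YTHDF1 KO against 48.5% with TMM, 63.4% against 49.7% in the combined group, 62.2% against 51.3% from siARID1A to the combined group and 63.5% against 53.5% from YTHDF1 KO to it. Without WT replicate 2, 7, 3 and 7 members passed in the comparisons of YTHDF1 KO, siARID1A and the combined group with WT. Same-numbered libraries did not deviate together (18 correlations, -0.042 to 0.033), and 6 of 12 libraries were most like others of their own number. A fit with a replicate block called 7284, 8166, 9346 and 2979 genes (YTHDF1 KO, siARID1A and combined against WT, and the interaction), against 7489, 8368, 9537 and 3167 without it, and CD276 in the combined group came to -0.18 (adjusted p = 0.0495). Depth limits PDCD1LG2, at 4 to 22 counts a group, and the WT levels of CD274 and CEACAM1, at 78 and 68 counts.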
